A study of Mus musculus with 6 samples.

Results

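Solute carriers are membrane proteins that move nutrients, ions, metals and metabolites across the plasma membrane and the membranes of organelles. Genes entered here when their platform symbol had the form Slc, a family number, a letter and a number, and when a probe set (the group of array probes that reports a transcript) read above log2 4 on at least 3 of 6 arrays. Of 334 such genes on the array, 6 were left out by the rule (Slc26a2, Slc35b2, Slc2a1, Slc4a1, Slc20a1 and Slc20a2), 165 did not pass the level filter and 163 were measured. The measured genes are described by transporter class, assigned by family number and not by the substrate of each member. For each gene 1 probe set stands, the one with the highest mean over the 6 arrays.

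The arrays held RNA of 2 cell fractions sorted from digested bone marrow of 3 Grem1;TdTomato mice on a C57BL/6J background, aged 6 to 8 weeks and given tamoxifen by mouth. The Grem1+ fraction was sorted for Grem1 cells in these tamoxifen-induced reporter animals, with no further gate stated. The Grem1- fraction from the same mice was non-recombined and triple negative for CD45, CD31 and Ter-119, which mark blood, endothelial and erythroid cells. Each group had 3 arrays, taken as 1 per mouse, with the replicate number in the titles read as the mouse. All differences below are Grem1+ minus Grem1- on the log2 scale.

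Families of solute carriers are numbered by sequence, and most families share a type of substrate. Cartilage cells use them to take up amino acids and metals and to bring activated sugars into the Golgi, where proteoglycan chains are built, while red cell precursors depend on iron carriers of the mitochondrion and phagocytes on metal pumps of the phagosome. The level filter chose the genes by their levels and not by the difference between fractions. Still, 9 of the 163 had all Grem1+ arrays above log2 4 and all Grem1- arrays below it, 3 had the reverse, and such genes passed through the group where they were high. Counts of genes past the test are therefore a description, to be read beside the share over all genes tested. At the edge of the filter, the third-highest array of Slc5a10 read 4.01 and that of Slc12a7 4.02, just inside, and that of Slc23a1 read 3.98 and that of Slc6a14 3.97, just outside.

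Array medians ran from 3.74 to 3.81, and the correlation of arrays across probe sets was 0.902 to 0.921 among Grem1+ arrays, 0.939 to 0.946 among Grem1- arrays and 0.792 to 0.845 across fractions. Grem1 itself stood at 4.49, 4.14 and 8.61 in Grem1+ and at 3.69, 3.75 and 3.70 in Grem1-, and did not pass the test (limma adjusted p = 0.248). Of 10 chondrocyte markers 9 were higher in Grem1+ and 0 lower, all but Col2a1, and their summed level (log2 of the sum of linear values) was 14.82 to 15.03 on Grem1+ arrays against 12.41 to 12.92 on Grem1- arrays. Of 10 pan-haematopoietic markers 7 were lower in Grem1+ and 0 higher, with a summed level of 12.03 to 12.97 on Grem1+ arrays against 14.39 to 14.51 on Grem1- arrays. Ptprc, the gene of CD45, read 7.29, 9.61 and 10.56 in Grem1+ and 12.13, 11.78 and 12.37 in Grem1-, although the Grem1- gate was negative for CD45. Of 9 measured granulocyte markers 6 were lower and 0 higher, and their summed level was 11.71 to 13.53 on Grem1+ arrays against 14.64 to 14.71 on Grem1- arrays. Of 6 measured erythroid markers, from a list of 10, 3 were lower and 0 higher. Hemgn, Gata1, Epb42 and Tfr2 were below log2 4 on all Grem1+ arrays. Genes below log2 4 on all Grem1+ arrays could pass the level filter only through their Grem1- arrays, so their direction was fixed by it. Of 5 measured B lineage markers, from a list of 8, 3 were lower. Only 2 of 7 listed endothelial and 2 of 6 listed osteoclast markers were measured, and none passed the test. The endothelial markers Pecam1 and Tek were below log2 4 on all Grem1+ arrays, and likewise passed the level filter only through their Grem1- arrays. They differed by -1.50 and -2.81 (limma adjusted p = 0.0587 and 0.0649). The osteoclast markers Acp5 and Ctsk differed by -0.93 and 1.58. The 3' probe set of Gapdh exceeded the 5' one, a gap that widens with shorter RNA, by 3.58 ± 0.51 log2 units on Grem1+ arrays and by 2.66 ± 0.34 on Grem1- arrays (SD, n = 3 each). The same gap of actin was 0.09 ± 0.11 on Grem1+ arrays and 0.16 ± 0.02 on Grem1- arrays. The labels give all animals as male, yet Xist, the RNA that silences an X chromosome, read 10.60 in Grem1+ and 11.04 in Grem1- of mouse 3 and at most 2.99 on the other arrays. The part of marker levels and of RNA length in the differences below was not tested, and in sorted bulk RNA fewer cells of a type and less RNA per cell cannot be told apart.

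Of the 163 measured transporters 34 were higher and 16 lower in Grem1+, with the mouse as a block in limma and a Benjamini-Hochberg adjusted p below 0.05 over all 10151 genes. Over all genes tested 11.7% were higher and 8.51% were lower, against 20.9% and 9.82% of the transporters, and the shares over all genes are the background of every class and family count below. Together 50 passed, or 30.7%, beside 20.2% of all genes, and in none of the 50 did a mouse go against the others. The median difference was 0.30 for the transporters and 0.04 for all genes. In 61 transporters every Grem1+ array lay above every Grem1- array, and in 25 every Grem1+ array lay below. Over all genes these shares were 23.2% and 19.8%, or 43.1% in either direction, and over the transporters 37.4% and 15.3%. With values below log2 4 set to 4, the largest positive differences were those of the orphan carrier Slc35e3 at 6.15, the citrate importer Slc13a5 at 5.62, the calcium exchanger Slc8a3 at 5.42 and the zinc importer Slc39a14 at 5.11. The largest negative ones on that scale were those of the glucose transporter Slc2a3 at -4.33, Slc35a5 at -4.26, the cystine carrier Slc7a11 at -4.08 and the iron exporter Slc40a1 at -3.98. When the fit kept the block but used only 2 mice, 0 genes passed in limma and 60 to 66 transporters had an unadjusted p under 0.05. Such a fit leaves few residual degrees of freedom, so its lack of calls does not show dependence on any mouse. A fit without the block on 2 mice, chosen after seeing the data, gave 17 higher and 10 lower without mouse 1, 22 and 9 without mouse 2, and 24 and 10 without mouse 3.

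**Figure D1:**
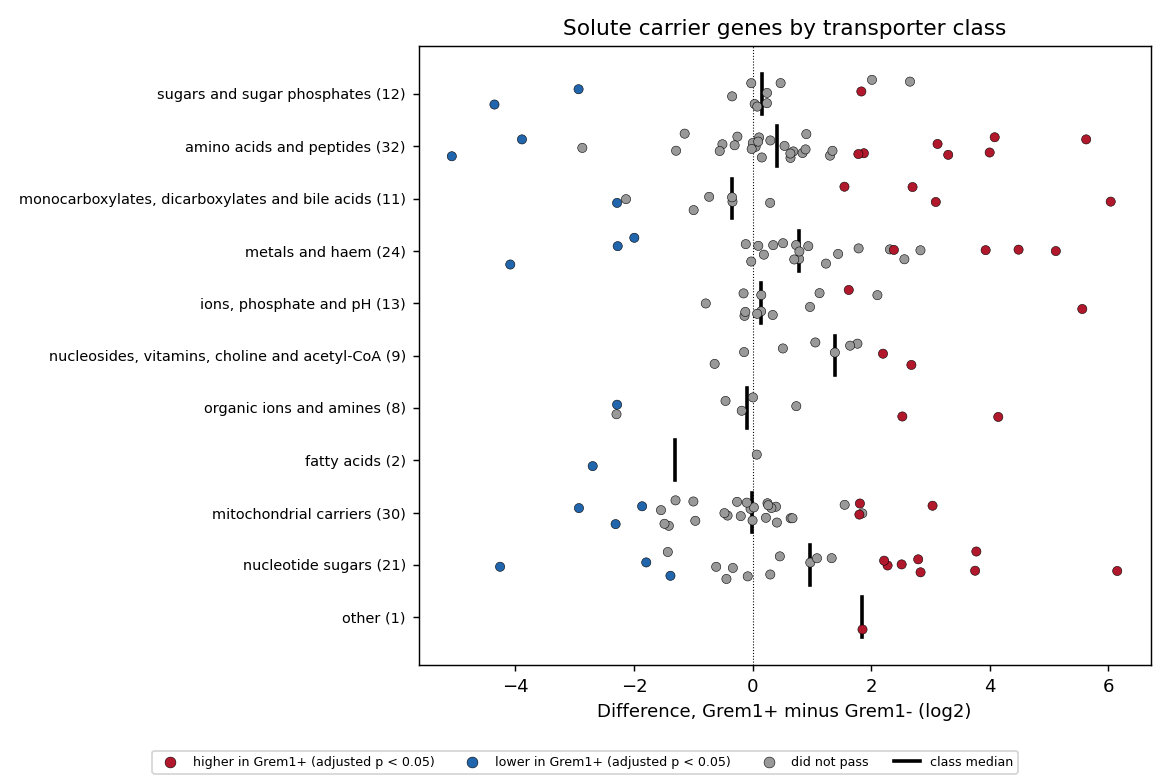
Each point is a transporter gene, placed by its difference Grem1+ minus Grem1- (log2, x axis) within its transporter class (y axis, number of measured genes in parentheses). Red points were higher and blue points lower at an adjusted p below 0.05, grey points did not pass, and black bars are class medians. The nucleotide sugar class, which is family Slc35, holds 8 red points and 3 blue ones.

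**Figure D2:**
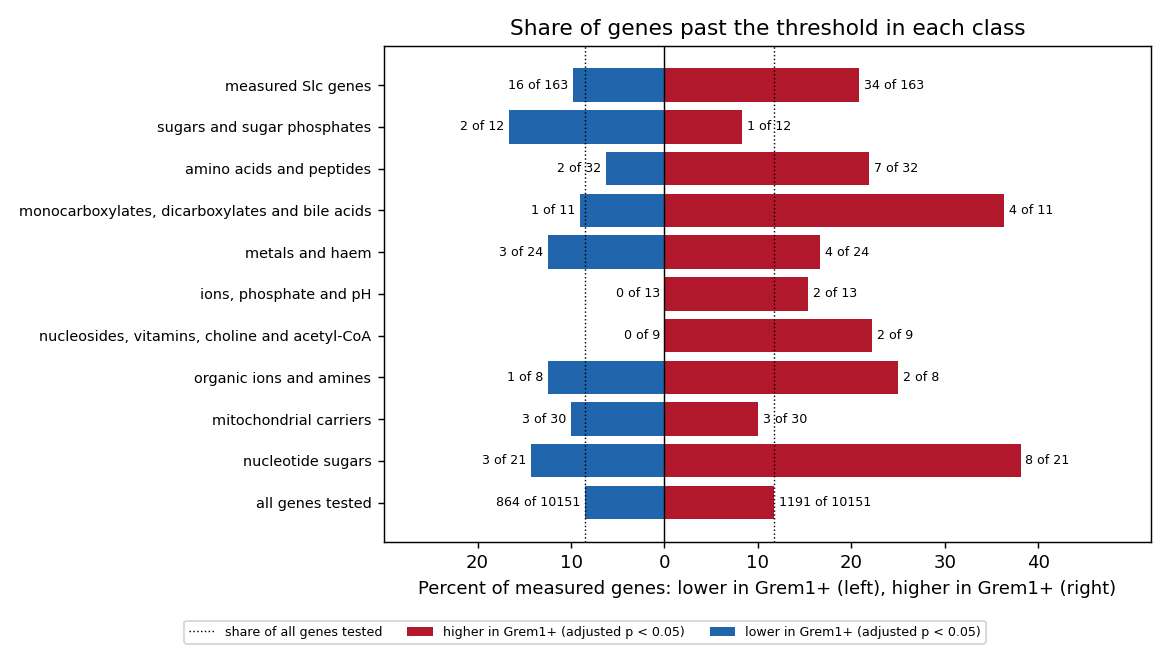
Bars give the percent of measured genes past the threshold in Grem1+ against Grem1-, higher to the right and lower to the left, for the measured Slc genes, the classes with at least 8 genes and all genes tested. Dotted lines mark the 11.7% higher and 8.51% lower of all genes. The nucleotide sugar class, which is family Slc35, extends past both lines, with 8 of 21 higher and 3 of 21 lower.

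The Slc35 family was classed under nucleotide sugars by family number, not by the substrate of each member. It was the class with the most genes higher in Grem1+. Of 21 measured, 8 were higher and 3 lower, with a class median of 0.97. Members of known function bring activated sugars or nucleotides into the endoplasmic reticulum and Golgi, where glycan chains are assembled, and several others have no established substrate. Slc35d1 carries UDP-glucuronic acid and UDP-N-acetylgalactosamine for chondroitin sulfate synthesis and is needed for the mouse skeleton. It read 6.92, 6.07 and 6.00 in Grem1+ and 3.72, 4.40 and 3.33 in Grem1-, a difference of 2.51 (SE 0.40, adjusted p = 0.0258). Its groups did not overlap, and 2 of the Grem1- arrays were below log2 4. Slc35a1, the CMP-sialic acid transporter, read 9.01, 9.16 and 8.58 in Grem1+ and 6.05, 6.12 and 6.08 in Grem1-, which is 7.12-fold. The groups did not overlap, and the Grem1- arrays lay close together. Slc35b1, which exchanges ATP into the endoplasmic reticulum, read 7.11, 8.69 and 7.61 in Grem1+ and 5.81, 5.82 and 4.95 in Grem1-, a difference of 2.28 (SE 0.42).

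The orphan members of the family held its largest difference. Slc35e3 read 10.48, 10.83 and 10.28 in Grem1+ and 4.10, 4.87 and 4.18 in Grem1-, a difference of 6.15 (SE 0.26, adjusted p = 0.00906) or 70.9-fold. Within each mouse the difference of Slc35e3 was 5.97 to 6.38, and the groups did not overlap. Slc35g1 differed by 3.77 (SE 0.32), Slc35f5 by 3.75 (SE 0.25) and Slc35e4 by 2.22 (SE 0.36). Slc35f2 read 7.68, 5.19 and 6.53 in Grem1+ and was below log2 4 on all Grem1- arrays, so it was at least 5.52-fold higher, and with values below log2 4 set to 4 its call was lost (adjusted p = 0.0559). Slc35e4 had another probe set that differed by 0.39, and it did not pass on that probe set, the one with no mark of possible sharing (adjusted p = 0.417). Without the filter on dim probe sets, which raises the number of genes adjusted over, Slc35d1, Slc35f2, Slc35b1 and Slc35e4 lost their calls (adjusted p = 0.0530, 0.0577, 0.0719 and 0.0506).

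The lower members of the family included Slc35c1, the GDP-fucose transporter on which fucosylated selectin ligands of leukocytes depend. It read 4.96, 4.82 and 4.35 in Grem1+ and 6.25, 6.15 and 5.89 in Grem1-, a difference of -1.39 (SE 0.25, adjusted p = 0.0341), and with a prior that follows the mean level it did not pass (adjusted p = 0.0512). Slc35a5 read 5.75, 4.59 and 4.26 in Grem1+ and 9.11, 9.39 and 8.87 in Grem1-, a difference of -4.26 (SE 0.40). All 3 of its passing probe sets were lower in Grem1+, by -4.26 to -1.22. Slc35d3 was below log2 4 on all Grem1+ arrays and read 4.31, 4.51 and 4.60 in Grem1-, which bounds it at 1.39-fold or more lower, and with values below log2 4 set to 4 it did not pass (adjusted p = 0.245). Among the 10 that did not pass, the UDP-galactose transporter Slc35a2 read 11.58 ± 0.15 in Grem1+ and 11.12 ± 0.05 in Grem1- (SD, n = 3 each), with a 95% interval of the difference from -0.24 to 1.16. Slc35a3, which carries UDP-N-acetylglucosamine, differed by 0.97 with an interval from -0.17 to 2.11, and Slc35a4 by -0.08 with an interval from -1.07 to 0.90. The pan-haematopoietic summed level on the same arrays was 12.03 to 12.97 in Grem1+ and 14.39 to 14.51 in Grem1-.

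The amino acid and peptide families went both ways. Being classed by family, they included the creatine transporter Slc6a8, while Slc16a10, which carries aromatic amino acids, was counted with the carboxylate carriers. Of 32 measured, 7 were higher and 2 lower, with a median of 0.42. Of the 4 measured Slc1 genes, which couple uptake of acidic and neutral amino acids to sodium, 3 were higher. Slc1a1, the neuronal-type glutamate and cysteine transporter, read 7.88, 8.10 and 7.72 in Grem1+ and 2.22, 2.21 and 2.38 in Grem1-, below log2 4 throughout, so it was at least 14.9-fold higher (adjusted p = 0.00906). The other Slc1a1 probe sets, which did not pass the level filter, differed by 0.86 and 0.59. Slc1a4, an exchanger of alanine, serine and cysteine, read 9.95, 11.54 and 10.14 in Grem1+ and 7.31, 6.14 and 5.94 in Grem1-, a difference of 4.08 (SE 0.61, adjusted p = 0.0234). Its 3 passing probe sets differed by 0.99 to 4.08, and on the brighter of the probe sets with no mark of possible sharing it differed by 0.99 and did not pass (adjusted p = 0.162). Slc1a5, the main glutamine exchanger, read 9.22, 8.44 and 8.53 in Grem1+ and 7.32, 6.86 and 6.39 in Grem1-, a difference of 1.88 (SE 0.27). The fourth, the glial-type glutamate transporter Slc1a3, differed by 0.11 and did not pass.

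Slc7a11, the cystine and glutamate exchanger that supplies cysteine for glutathione, was lower in Grem1+. It read 3.07, 1.97 and 4.70 in Grem1+ and 8.02, 7.68 and 9.25 in Grem1-, a difference of -5.07 (SE 0.35, adjusted p = 0.00906), or -4.08 with values below log2 4 set to 4. In each fraction mouse 3 was the highest, and the other passing probe set of Slc7a11 differed by -4.77. Slc7a11 and Slc1a4 are known targets of ATF4, the transcription factor of the amino acid response, and they differed in opposite directions here, so their promoters are shown. RefSeq promoters (GRCm38.p6, 250 bases before to 50 after the start) were matched for 127 of the 163 genes, with 169 starts. The letters TGATGNAA, the core of the amino acid response element, were sought on both strands and stand in capitals.
Slc7a11 promoter (chr3:50443564-50443863, minus strand): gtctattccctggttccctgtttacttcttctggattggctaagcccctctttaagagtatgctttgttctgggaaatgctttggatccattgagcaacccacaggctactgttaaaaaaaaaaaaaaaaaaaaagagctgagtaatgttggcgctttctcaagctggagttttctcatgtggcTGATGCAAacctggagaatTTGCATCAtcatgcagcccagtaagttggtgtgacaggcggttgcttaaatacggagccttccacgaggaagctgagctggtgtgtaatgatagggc
Slc1a4 promoter (chr11:20332664-20332963, minus strand): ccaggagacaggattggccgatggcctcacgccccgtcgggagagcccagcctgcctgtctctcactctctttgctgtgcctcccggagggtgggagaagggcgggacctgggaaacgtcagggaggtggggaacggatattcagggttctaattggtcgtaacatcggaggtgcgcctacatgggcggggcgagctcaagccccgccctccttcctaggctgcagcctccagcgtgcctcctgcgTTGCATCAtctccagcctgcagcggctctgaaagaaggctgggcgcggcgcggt
In Slc7a11 the letters occurred 2 times, on opposite strands, and in Slc1a4 they occurred 1 time across the start. They were in 3.97% of all 32851 promoters and in 2.96% of the 169 of measured transporters, and Slc7a7 was the only other amino acid carrier with them. A match describes the sequence and shows no binding.

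The other members of the amino acid and peptide class past the test were Slc7a2, Slc6a8, Slc38a4, Slc7a6 and Slc15a2. Slc7a2, a carrier of arginine and lysine, read 9.55, 7.44 and 7.84 in Grem1+ and 3.96, 3.72 and 5.16 in Grem1-, a difference of 3.997 (SE 0.65). Slc6a8, the creatine transporter, was below log2 4 on all Grem1- arrays and at least 7.90-fold higher. Slc38a4 differed by 3.12 (SE 0.68, adjusted p = 0.0482), and its Grem1- arrays spread from 3.23 to 5.39. Slc7a6, which exchanges cationic for neutral amino acids, differed by 1.78 (SE 0.39, adjusted p = 0.0494), and lost its call under 5 of the 10 alternatives that kept all mice. Slc15a2, a proton-coupled importer of small peptides, read 3.27, 2.44 and 3.59 in Grem1+ and 7.14, 7.61 and 6.22 in Grem1-, so it was at least 7.94-fold lower. Without the filter on dim probe sets, Slc1a4, Slc7a2, Slc38a4 and Slc15a2 lost their calls (adjusted p = 0.0585, 0.0660, 0.111 and 0.0551).

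The 23 members of the amino acid and peptide class that did not pass differed by -2.87 to 1.35. Slc3a2, the heavy chain that carries several Slc7 partners to the surface, differed by 0.89 (interval 0.17 to 1.61, adjusted p = 0.0899), and its leucine-transporting partner Slc7a5 by 1.35 (interval 0.05 to 2.64, adjusted p = 0.128). Slc38a2, a sodium-coupled carrier of glutamine, alanine and proline used by bone-forming cells, read 11.06, 10.64 and 10.60 in Grem1+ and 10.67, 10.63 and 10.98 in Grem1-. Its difference of 0.00 had an interval from -0.80 to 0.81, but its other passing probe sets differed by -1.31 and -1.34. Slc38a9, a lysosomal sensor of arginine, differed by -2.87 with an interval from -6.19 to 0.45, and with the mean of its probe sets it stood at -1.73 and passed (adjusted p = 0.0385). The glycine transporter Slc6a9, used by red cell precursors, stood at 5.43 ± 0.72 in Grem1+ and 4.52 ± 0.58 in Grem1- (SD, n = 3 each) and did not pass (adjusted p = 0.114). Slc15a3, a lysosomal carrier of phagocytes, differed by -1.15 (interval -2.36 to 0.07).

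**Figure D3:**
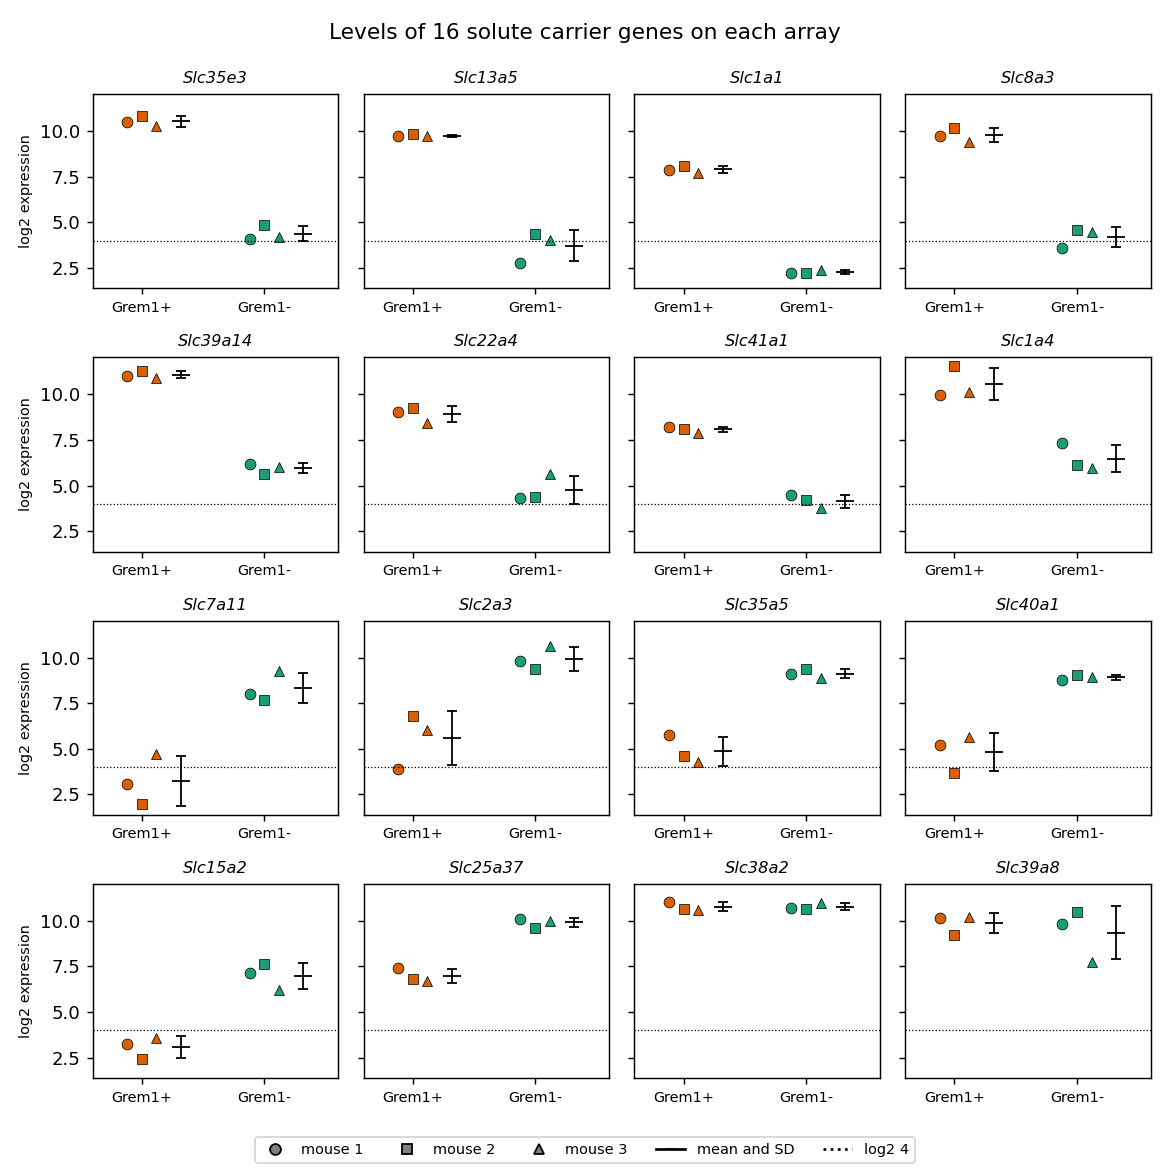
Log2 expression (y axis) of 16 transporters on each array, with Grem1+ left and Grem1- right in each panel, symbols for the 3 mice, and the mean and SD (n = 3) beside them. The dotted line is log2 4. The first 8 genes lie above in Grem1+, the next 6 lie below, and Slc38a2 and Slc39a8 overlap.

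Among metal carriers past the test, 3 zinc carriers and a magnesium carrier were higher, and an iron exporter, a phagosomal metal pump and a copper carrier were lower. Of 24 measured, 4 were higher and 3 lower, with a median of 0.79. Zinc enters the cytosol through the Slc39 family, also called ZIP, and leaves it through the Slc30 family, also called ZnT. Of 10 measured Slc39 genes 2 were higher and 0 lower, and of 6 Slc30 genes 1 was higher and 0 lower. Slc39a14, an importer of zinc, manganese and iron, read 11.02, 11.28 and 10.89 in Grem1+ and 6.18, 5.64 and 6.03 in Grem1-, a difference of 5.11 (SE 0.31, adjusted p = 0.00906) or 34.6-fold. Its other passing probe sets differed by 2.72 and 6.97, so all were in 1 direction. Slc39a7, which releases zinc from the endoplasmic reticulum, read 9.40, 9.95 and 9.56 in Grem1+ and 7.39, 7.31 and 7.07 in Grem1-, a difference of 2.38 (SE 0.28).

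Slc30a4, an exporter of zinc into vesicles, read 10.81, 10.33 and 10.58 in Grem1+ and 6.19, 6.98 and 5.10 in Grem1-, a difference of 4.48 (SE 0.50, adjusted p = 0.0153). Slc41a1, a magnesium transporter, read 8.23, 8.08 and 7.91 in Grem1+ and 4.46, 4.21 and 3.76 in Grem1-, a difference of 3.93 (SE 0.26). Slc30a1, the zinc exporter of the plasma membrane and a textbook target of the metal-sensing factor MTF1, did not pass. It read 7.98, 8.04 and 7.48 in Grem1+ and 9.72, 6.10 and 5.32 in Grem1-, and mouse 1 went against the other mice (difference 0.78, interval -1.74 to 3.30). The promoters of both exporters are shown to set a zinc exporter that passed the test beside a known zinc-responsive one. Capitals mark TGCACNC or TGCGCNC, the core of the metal response element, on either strand.
Slc30a4 promoter (chr2:122702614-122702913, minus strand): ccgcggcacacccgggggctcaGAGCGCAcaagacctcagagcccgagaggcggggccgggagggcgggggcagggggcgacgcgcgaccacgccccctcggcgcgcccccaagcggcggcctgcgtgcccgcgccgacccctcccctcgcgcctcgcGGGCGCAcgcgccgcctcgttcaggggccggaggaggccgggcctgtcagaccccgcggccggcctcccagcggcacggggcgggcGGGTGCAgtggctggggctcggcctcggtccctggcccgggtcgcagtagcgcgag
Slc30a1 promoter (chr1:191906531-191906830, plus strand): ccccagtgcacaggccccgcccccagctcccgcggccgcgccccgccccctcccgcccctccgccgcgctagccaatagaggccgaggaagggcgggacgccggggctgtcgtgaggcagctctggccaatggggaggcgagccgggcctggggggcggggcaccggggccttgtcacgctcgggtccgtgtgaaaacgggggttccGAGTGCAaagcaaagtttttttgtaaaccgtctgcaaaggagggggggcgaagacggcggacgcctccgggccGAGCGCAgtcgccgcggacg
The window of Slc30a4 held 3 matches and that of Slc30a1 held 2. TGCACNC was in 12.6% and TGCGCNC in 15.4% of all promoters, and in 14.8% and 21.3% of the 169 promoters of measured transporters. These are among 14 motifs searched after the values were seen, and none was tested.

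Other zinc carriers did not pass. Slc39a10 read 9.06, 6.88 and 7.46 in Grem1+ and 3.29, 4.93 and 6.69 in Grem1-, a difference of 2.83 (SE 1.09, adjusted p = 0.153). Its other probe set differed by 4.85, and the gene passed when that probe set was used (adjusted p = 0.0107). Slc39a8, a zinc and manganese importer that drives matrix breakdown in osteoarthritic cartilage of mice, read 10.17, 9.22 and 10.22 in Grem1+ and 9.84, 10.49 and 7.74 in Grem1-, which overlap. Its difference of 0.51 had an interval from -1.68 to 2.71 and was -0.47 without mouse 3. Slc39a13, whose loss causes a connective tissue disorder, differed by 0.70 (interval -0.06 to 1.47), and Slc39a3 by -0.02 (interval -0.74 to 0.69). The remaining metal carriers that did not pass lay between -0.12 and 2.56.

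Of the lower metal carriers, Slc40a1, or ferroportin, the only known cellular iron exporter, read 5.21, 3.67 and 5.64 in Grem1+ and 8.79, 9.07 and 8.92 in Grem1-, a difference of -4.09 (SE 0.53, adjusted p = 0.0181). Slc11a1, which pumps divalent metals out of the phagosomes of macrophages and neutrophils, read 4.44, 3.94 and 5.93 in Grem1+ and 6.72, 6.51 and 7.08 in Grem1-, which is 3.99-fold lower (SE 0.39 on the log2 scale, adjusted p = 0.0392). Slc31a2, a copper carrier of endosomes, differed by -2.28 (SE 0.38). The median of the granulocyte markers was 6.97, 8.59 and 9.12 in Grem1+ of mice 1, 2 and 3 and 11.25, 11.40 and 11.23 in Grem1-, and its part in these results was not tested. The related copper importer Slc31a1 had a difference of 1.79 that did not pass (adjusted p = 0.0550) except under 3 alternatives, the stricter filter, the mean of probe sets and no replicate block (adjusted p = 0.0439, 0.0499 and 0.0252), and the iron importer Slc11a2 read 7.43 ± 1.30 in Grem1+ and 6.69 ± 0.71 in Grem1- (SD, n = 3 each) and did not pass. Without the filter on dim probe sets Slc11a1 and Slc31a2 lost their calls (adjusted p = 0.0743 and 0.0566).

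Among carriers of carboxylates and bile acids 4 of 11 were higher and 1 was lower, with a median of -0.34. Slc13a5, which imports citrate with sodium, read 9.73, 9.81 and 9.70 in Grem1+ and 2.75, 4.37 and 4.02 in Grem1-, a difference of 6.04 (SE 0.42, adjusted p = 0.00906), or 5.62 with values below log2 4 set to 4. Its Grem1+ arrays had an SD of 0.06, and its other passing probe set differed by 5.87. Slc10a6, an importer of sulfated steroids, was below log2 4 on all Grem1- arrays and at least 5.83-fold higher. Slc10a7, a Golgi-located member whose loss impairs skeletal growth, read 8.24, 8.12 and 8.38 in Grem1+ and 5.51, 6.34 and 4.81 in Grem1-, a difference of 2.70 (SE 0.44). Its other passing probe sets differed by 0.36 and -0.91, and with the mean of the 3 its difference was 0.72 and its call was lost (adjusted p = 0.168), as it was without the filter on dim probe sets (adjusted p = 0.0585). Slc10a7 was the only called transporter whose passing probe sets went both ways, of 27 with several.

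The monocarboxylate transporters, Slc16, move lactate, pyruvate and some amino acids and hormones. Slc16a7, a lactate and pyruvate importer, differed by 1.55 (SE 0.26), but with values below log2 4 set to 4 it stood at 0.93 and did not pass (adjusted p = 0.147), nor did it without the replicate block (adjusted p = 0.0904). Slc16a10, which carries aromatic amino acids and thyroid hormone, read 3.55, 4.25 and 3.05 in Grem1+ and 5.41, 6.22 and 6.08 in Grem1-, a difference of -2.29 (SE 0.36). Slc16a1, the widespread lactate carrier, read 10.37 ± 0.31 in Grem1+ and 10.08 ± 0.19 in Grem1- (SD, n = 3 each), with an interval from -0.43 to 1.02. Slc16a3, the lactate exporter of glycolytic cells, read 5.75, 5.46 and 6.54 in Grem1+ and 7.70, 8.78 and 7.67 in Grem1-. Its groups did not overlap, yet it did not pass (difference -2.14, adjusted p = 0.0588). It passed under 4 alternatives, among them the stricter filter, the mean of probe sets and no replicate block (adjusted p = 0.0439, 0.0379 and 0.0179).

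Of 12 carriers of sugars and sugar phosphates 1 was higher and 2 were lower, with a median of 0.16. Slc5a3, which imports the osmolyte myo-inositol with sodium, read 10.61, 11.14 and 10.40 in Grem1+ and 8.51, 9.40 and 8.74 in Grem1-, a difference of 1.83 (SE 0.27). Its probe sets differed by 1.83 to 3.54, and with their mean it stood at 2.85. Slc2a3, a high-affinity glucose transporter of neurons and white blood cells, read 3.92, 6.80 and 6.02 in Grem1+ and 9.80, 9.36 and 10.64 in Grem1-, a difference of -4.35 (SE 0.72, adjusted p = 0.0278). Its 4 passing probe sets lay between -4.47 and -3.47. Slc2a9, a urate transporter, differed by -2.94 (SE 0.49), and its other probe set by -0.28. Without the filter on dim probe sets Slc2a3 and Slc2a9 lost their calls (adjusted p = 0.0706 and 0.0647), and with the mean of its probe sets Slc2a9 stood at -1.61.

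The sugar carriers that did not pass differed by -0.35 to 2.65. Slc2a10, whose loss in people causes arterial tortuosity, read 7.28, 8.57 and 4.75 in Grem1+ and 2.92, 4.29 and 5.43 in Grem1-, so mouse 3 went against the others. Slc37a4, the glucose 6-phosphate carrier of the endoplasmic reticulum that neutrophils need, differed by 0.03 (interval -1.11 to 1.18). Slc2a6, a lysosomal hexose transporter of macrophages, differed by -0.35 (interval -1.04 to 0.35), and Slc5a2, the renal glucose transporter, by 0.08 (interval -0.62 to 0.78).

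Of 13 carriers of ions, phosphate and protons 2 were higher and 0 lower, with a median of 0.15. Slc8a3, a sodium and calcium exchanger of the plasma membrane, read 9.72, 10.17 and 9.40 in Grem1+ and 3.59, 4.55 and 4.48 in Grem1-, a difference of 5.56 (SE 0.35, adjusted p = 0.00906) or 47.1-fold. Its other probe set differed by 1.83, and the mean of both by 3.69, which also passed. Slc12a2, the sodium, potassium and chloride cotransporter that sets cell volume, read 7.45, 8.15 and 7.19 in Grem1+ and 5.97, 6.57 and 5.38 in Grem1-, a difference of 1.62 (SE 0.26), and it lost its call with its most variable probe set (2.46, adjusted p = 0.0565) and with a prior that follows the mean level (adjusted p = 0.0583). Slc12a9 differed by -0.14 (interval -1.30 to 1.02). The bicarbonate carrier Slc4a5 had the widest spread within Grem1+ of all measured transporters, at 3.05, 8.42 and 5.92, against 4.99, 4.29 and 4.71 in Grem1-. Its difference of 1.13 did not pass and was -0.37 without mouse 2.

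Of 9 carriers of nucleosides, vitamins, choline and acetyl-CoA 2 were higher and 0 lower, with a median of 1.39. Slc44a1, a choline transporter that feeds phospholipid synthesis, read 10.60, 10.45 and 10.64 in Grem1+ and 7.88, 8.74 and 7.04 in Grem1-, a difference of 2.68 (SE 0.45). Slc19a2, the thiamine importer whose loss in people causes anaemia, read 10.24, 10.22 and 8.71 in Grem1+ and 7.17, 7.74 and 7.66 in Grem1-, a difference of 2.20 (SE 0.49, adjusted p = 0.0498), at the edge of the threshold. Slc19a2 lost its call without the filter, with median centring and with values below log2 4 set to 4 (adjusted p = 0.103, 0.0512 and 0.0519), and Slc44a1 without the filter (adjusted p = 0.0636). The ascorbate importer Slc23a2 differed by 1.77 and the acetyl-CoA carrier Slc33a1 by 1.64, and neither passed (adjusted p = 0.0848 and 0.107), although Slc23a2 did without the replicate block and with a prior that follows the mean level (adjusted p = 0.0402 and 0.0480). Slc29a3, a lysosomal nucleoside carrier of macrophages, differed by -0.64 (interval -1.68 to 0.39), and Slc46a2 by -0.14 (interval -0.84 to 0.56).

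Of 8 carriers of organic ions and amines 2 were higher and 1 lower, with a median of -0.09. Slc22a4, which imports the antioxidant ergothioneine and is known from red cell precursors, read 9.02, 9.28 and 8.43 in Grem1+ and 4.30, 4.35 and 5.65 in Grem1-, a difference of 4.14 (SE 0.54, adjusted p = 0.0184) or 17.7-fold. Slc22a21, a carnitine transporter of mice, was below log2 4 on all Grem1- arrays and at least 3.44-fold higher. Slc22a15 read 3.91, 5.50 and 5.32 in Grem1+ and 6.74, 6.81 and 8.03 in Grem1-, a difference of -2.29 (SE 0.42), and its other probe set differed by -4.04. It lost its call without the filter on dim probe sets (adjusted p = 0.0695). Slc18a2, which loads amines into the granules of mast cells, basophils and neurons, differed by -2.30 (interval -4.67 to 0.08) and did not pass, and the urea transporter Slc14a1 differed by 0.01 (interval -1.82 to 1.83). Of the 2 measured fatty acid transport proteins, Slc27a4 read 4.27, 3.85 and 4.87 in Grem1+ and 6.59, 7.13 and 7.37 in Grem1-, a difference of -2.70 (SE 0.32), while Slc27a1 differed by 0.07 (interval -0.63 to 0.77).

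Mitochondrial carriers, Slc25, ran from -2.93 to 3.03 around a median of -0.02. Of 30 measured, 3 were higher and 3 lower, 10% each, which is near the 11.7% and 8.51% of all genes. Slc25a32, which brings folate into the mitochondrion, read 9.33, 9.03 and 9.89 in Grem1+ and 6.05, 5.85 and 7.26 in Grem1-, a difference of 3.03 (SE 0.29), or 1.66 on the passing probe set with no mark of possible sharing. Slc25a4, the ADP and ATP exchanger of heart and muscle type, read 10.77, 11.18 and 10.41 in Grem1+ and 8.73, 9.50 and 8.71 in Grem1-, a difference of 1.81 (SE 0.26). Its close relative Slc25a5, the widespread exchanger, read 11.87, 11.01 and 12.06 in Grem1+ and 12.09, 11.86 and 12.26 in Grem1-, a difference of -0.42 (interval -1.22 to 0.38). Such close relatives can share hybridisation, and the probe sets of both end in x, which marks possible sharing. Slc25a40, a glutathione carrier, differed by 1.80 (SE 0.40, adjusted p = 0.0494) and lost its call under 5 of the 10 alternatives that kept all mice.

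Slc25a37, or mitoferrin 1, the iron importer of red cell precursors, read 7.43, 6.83 and 6.68 in Grem1+ and 10.09, 9.63 and 10.01 in Grem1-, a difference of -2.93 (SE 0.29, adjusted p = 0.0129) or 7.61-fold lower. Its relative outside the red cell lineage, Slc25a28 or mitoferrin 2, read 4.67, 5.23 and 4.81 in Grem1+ and 5.94, 6.00 and 5.67 in Grem1-, a difference of -0.97 that did not pass (adjusted p = 0.0814) except without the replicate block (adjusted p = 0.0462). Slc25a24, a calcium-regulated carrier of ATP and phosphate, read 6.89, 7.76 and 8.20 in Grem1+ and 10.21, 9.82 and 9.75 in Grem1-, a difference of -2.31 (SE 0.44), and it lost its call without the filter (adjusted p = 0.0771). Slc25a33, a pyrimidine nucleotide carrier, differed by -1.86 (SE 0.32). Of the 24 that did not pass, 18 lay within 1 log2 unit of 0, and Slc25a34 stood nearest, with an interval from -0.69 to 0.69. Erythroid markers beside these values had a summed level of 6.23 to 6.999 in Grem1+ and 11.18 to 11.43 in Grem1-.

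Slc66a2, a PQ-loop protein outside these classes, read 7.48, 7.51 and 7.58 in Grem1+ and 5.75, 5.07 and 6.20 in Grem1-, a difference of 1.85 (SE 0.33, adjusted p = 0.0324). Its other probe set differed by 0.56, and the gene lost its call without the filter on dim probe sets (adjusted p = 0.0535) and with a prior that follows the mean level (adjusted p = 0.0516). Without mouse 3, where the other probe set becomes the one of highest mean, the difference was 0.55. No other called transporter changed its difference by over 1.5 times when a mouse was left out.

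**Figure D4:**
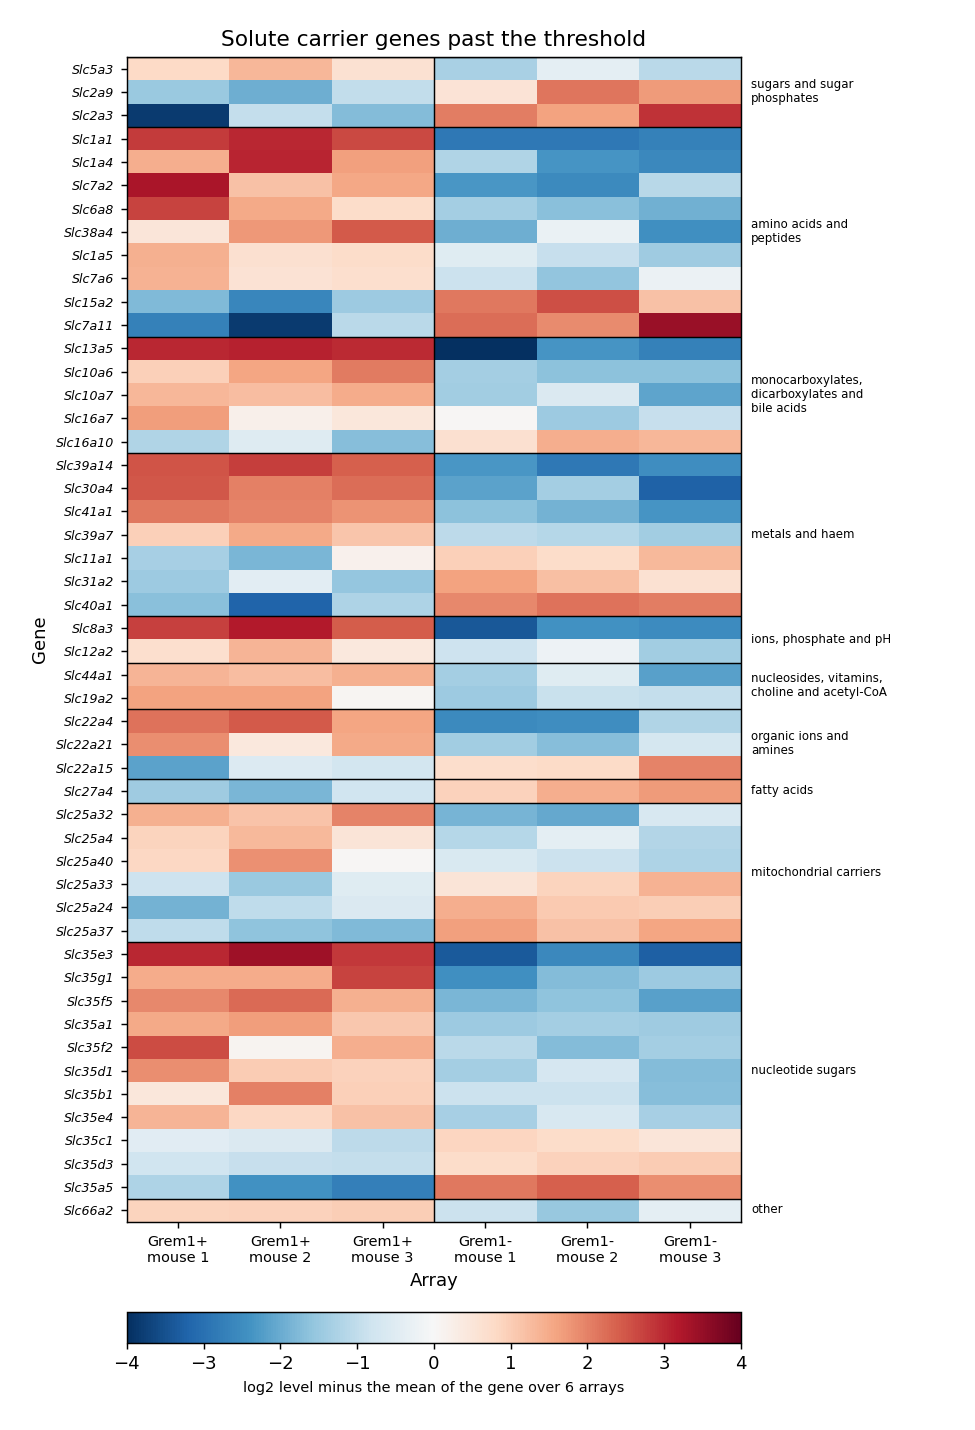
Rows are the 50 transporters past the threshold, grouped by class, and columns are the 3 Grem1+ arrays (left) and the 3 Grem1- arrays (right). Colour gives the log2 level minus the mean of the gene over the 6 arrays, so that 34 rows are red and 16 blue on the Grem1+ side.

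Transporters were also read by their known place in skeletal or blood cells, beside 11.7% higher and 8.51% lower over all genes and 20.9% and 9.82% over the transporters. The lists were chosen with earlier results of these data known, so their counts describe the members and test nothing. Of 9 measured genes listed for the skeleton, 5 were higher (Slc39a14, Slc8a3, Slc10a7, Slc35d1 and Slc1a5) and 1 was lower (Slc7a11), with a median of 1.88. Of 7 measured genes listed for myeloid cells and osteoclasts, Slc7a2 was higher and Slc2a3 and Slc11a1 were lower, with a median of -0.64. Of 8 measured genes listed for red cell precursors, Slc22a4 and Slc19a2 were higher and Slc40a1 and Slc25a37 lower, with a median of 0.82. The members of that last list therefore did not share a direction.

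Transport genes without a numbered Slc symbol were read from a list of 53, of which 25 were measured. Of these, 2 were higher and 4 lower, with a median of -0.49, beside 11.7% and 8.51% of all genes. Bsg, the chaperone that brings Slc16 lactate carriers to the surface, read 8.46, 8.15 and 7.35 in Grem1+ and 5.10, 5.29 and 4.93 in Grem1-, a difference of 2.88 (SE 0.31, adjusted p = 0.0146). Both scaffold genes of the sodium and proton exchangers passed, in opposite directions. Slc9a3r2 differed by 3.64 (SE 0.35), with its 4 passing probe sets between -0.08 and 3.64, and Slc9a3r1 by -4.22 (SE 0.71). Slco4c1 and Slco4a1, organic anion transporters, differed by -4.59 (SE 0.63) and -3.35 (SE 0.53), and Mfsd6 by -4.26 (SE 0.58). The other passing probe set of Slco4a1 differed by -0.10. The 3 measured sodium pump subunits did not pass. Of these, Atp1b1 differed by -4.01 (limma adjusted p = 0.0861) and its groups did not overlap. Its 4 passing probe sets lay between -5.63 and -1.60. Atp1b2 and Atp1b3 differed by 0.27 and 0.42. Tfrc, the transferrin receptor, differed by -0.06 (limma adjusted p = 0.925), with its 3 passing probe sets between -1.03 and -0.06.

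Of the 165 Slc genes below the filter, many had no array above log2 4 on any probe set, among them 26 amino acid carriers and 25 carriers of ions, phosphate and protons. Of all 165, 39 were carriers of ions, phosphate and protons and 32 were amino acid carriers. Others had signal on 1 or 2 arrays, such as Slc2a12, which had 2 arrays above log2 4 and reached 8.10. These genes were tested only in the alternative without the filter.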

How the data were processed

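Total RNA was amplified and hybridised to 6 Affymetrix mouse arrays, 3 per fraction. The authors deposited log2 values per probe set, made with GCRMA per the submitters' processing notes. No label or file header names its version or options. The number of arrays limits the precision. The deposited table was used without further normalization. Of 45101 probe sets, 34945 carried 1 gene symbol on the platform annotation, 932 several and 9160 none, and 64 were controls. Only those with 1 symbol were named, and the symbols of all 163 measured transporters were equal in the RefSeq gene table (GRCm38.p6).

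Probe sets above log2 4 on at least 3 of 6 arrays were kept, and the one with the highest mean stood for each of 10151 genes. limma 3.58.1 in R 4.3.3 (lmFit, eBayes, two-sided) was fitted to all genes with the mouse as a block, and p-values were adjusted by Benjamini-Hochberg over all of them at 0.05. The block rests on the series' design text, in which the fractions are matched by animal, and the replicate number in the titles was read as that animal. Arrays of the same number deviated from their group means with correlations of 0.014, 0.074 and 0.046. No 2 arrays shared more than 0.00222% identical values. Values below log2 4 count as dim. Where every array of the lower group was dim, the fold is a bound with dim values set to 4. Intervals are unadjusted 95% intervals of the fit.

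In each class up to 5 transporters past the threshold per direction were named, with the steadiest one that did not pass and the members of 3 role lists. Slc7a6, Slc35b1, Slc35e4 and those that did not pass and lie outside the lists (among them Slc1a3, Slc2a10, Slc3a2, Slc4a5, Slc7a5, Slc16a3, Slc18a2, Slc23a2, Slc25a5, Slc30a1, Slc31a1, Slc33a1, Slc35a2, Slc35a3 and Slc38a9) were named after their values were seen. The members, classes and lists were chosen with earlier results of these data known. Alternatives covered the filter, the scaling, the probe set per gene, dim values, the block, the prior and leaving out each mouse.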

Additional observations from a re-analysis of the deposited data

How the results depend on the processing

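Without the filter on dim probe sets 21 transporters were higher and 9 lower, of 328 tested. The other alternatives that kept all mice gave 29 to 43 higher and 15 to 19 lower. Without the replicate block 41 were higher and 19 lower, of which 33 and 16 were also called with it. Leaving out any mouse with the block gave 0 calls in either direction by limma (60 to 66 transporters at an unadjusted p under 0.05). That fit leaves few residual degrees of freedom and cannot show whether the calls depend on a mouse. Without the block, leaving out a mouse gave 17, 22 and 24 higher and 10, 9 and 10 lower for mice 1, 2 and 3, a setting chosen after seeing the data. Of the 50 transporters past the threshold, 42 had a value under all 10 alternatives that kept all mice, and 21 of these kept their call. The other 8 had a value under 9, and 5 of them kept it. None of the 50 changed sign under any alternative where it had a value. Of 35 named ones that did not pass, 9 changed sign. Under quantile normalization Slc25a34 stood at 0.025, Slc38a2 at -0.071 and Slc39a3 at 0.0044. With the mean of probe sets Slc35a4 stood at 0.15, Slc38a2 at -0.88 and Slc39a3 at 0.19. With the most variable probe set Slc16a1 stood at -0.21, Slc35a4 at 0.53, Slc38a2 at -1.34 and Slc39a3 at 0.40, and without shared probe sets Slc35a4 stood at 0.53. Leaving out 1 mouse, with or without the block, ranged Slc25a34 from -0.041 to 0.036 (0.00067 without mouse 2), Slc38a2 from -0.19 to 0.19, Slc39a3 from -0.085 to 0.085, Slc35a4 from -0.43 to 0.20, Slc37a4 from -0.42 to 0.39, Slc14a1 from -0.87 to 0.47, Slc39a8 from -0.47 to 1.40 and Slc4a5 from -0.37 to 2.67. The cause of these shifts was not tested. With 3 arrays a group, dim probe sets limit the size of differences that can be read.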
